A study of Mus musculus with 2 samples.

Results

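Molecular chaperones bind proteins that are unfolded or misfolded and help them fold, refold, cross membranes or reach the proteasome. The 80 genes described here are the heat shock proteins of the HSP70, HSP110, HSP90 and small families, the J-domain co-chaperones (Dnaja, Dnajb and Dnajc genes) and the subunits of the chaperonins. HSP70 proteins hold and release clients in a cycle of ATP hydrolysis that J-domain proteins start and nucleotide exchange factors reset, HSP90 proteins act later on kinases, receptors and other clients, and chaperonins enclose a client in a barrel. Part of each family is made at all times in every cell, and another part, such as Hspa1a and Hspa1b, is known to be induced by heat and other stress through the transcription factor HSF1.

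The members are all protein-coding genes with a GENCODE symbol of these families, matched by Ensembl identifier to both mm10 gene quantifications. They make up 80 of the 43346 mouse genes measured, against 21474 protein-coding genes in all. The rule fits 81 genes of GENCODE M21. Hspa14 is the one without an entry of its own: of the 8 transcripts of the closest entry, which had 54.5 TPM in replicate 1 and 47.4 TPM in replicate 2, 6 now belong to Hspa14, and it was left out. Cct6a was kept because the rule names it, although M21 classes the gene as a processed transcript.

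RNA was sequenced from the cerebellum of adult C57BL/6J mice aged 8 weeks, an inbred laboratory strain, with no treatment or genotype given in the labels. There is 1 group with 2 libraries, numbered as biological replicates, of stranded paired reads from polyadenylated, ribosome-depleted RNA longer than 200 nucleotides. With 1 group, no test of a condition was possible and no p-value is given. Replicate 1 held 83109117 expected counts and replicate 2 held 84279927. Expected counts are the authors' estimated numbers of fragments per gene, and TPM is the authors' length-corrected level relative to all transcripts in the library, written below as replicate 1 and then replicate 2.

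Both libraries are labelled as a pool of males and females, but Xist, the RNA of the inactive X chromosome, was at 93.5 TPM in replicate 1 and 0.03 TPM in replicate 2, and the 4 Y-linked genes Ddx3y, Eif2s3y, Kdm5d and Uty were listed at 0 in replicate 1 and at 7.34 to 42.9 TPM in replicate 2. By these genes the libraries did not come from 1 common pool of animals, and a difference between the replicates cannot be told apart from a difference between the sexes. The labels do not say how many animals each library holds. Markers of granule neurons (6 of 6 genes at 1 TPM or more in both libraries, summed 2831 and 2363 TPM) and Purkinje neurons (5 of 5, summed 2490 and 2071 TPM) were present in both, as the tissue label says. The libraries also differed in choroid plexus markers, which were at 2117 TPM in replicate 1 and 775 TPM in replicate 2, and in red blood cell markers, at 744 and 1631 TPM. In bulk tissue such as this, fewer cells of a type and less RNA per cell cannot be told apart.

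The chaperone genes were broadly and highly expressed. Of the 80 members, 69 (86.3%) were at 1 TPM or more in both libraries, against 60.9% of protein-coding genes, 59 were at 10 TPM or more, against 40.0%, and 11 were at 100 TPM or more, against 5.71%. Their median level was 29.8 TPM, with 29.1 and 30.2 TPM in the separate libraries, and the median of all protein-coding genes was 4.77 TPM. Together they held 0.813% of the TPM of nuclear genes in replicate 1 and 0.801% in replicate 2. As a share of expected counts this was 0.899% (95% Wilson interval 0.897% to 0.901%) and 0.911% (0.909% to 0.913%), intervals that cover counting error only. A single gene, Hspa8, held 30.1% and 29.4% of the members' summed TPM, and with Hsp90ab1 and Hsp90aa1 the share was 47.1% and 45.7%.

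**Figure D1:**
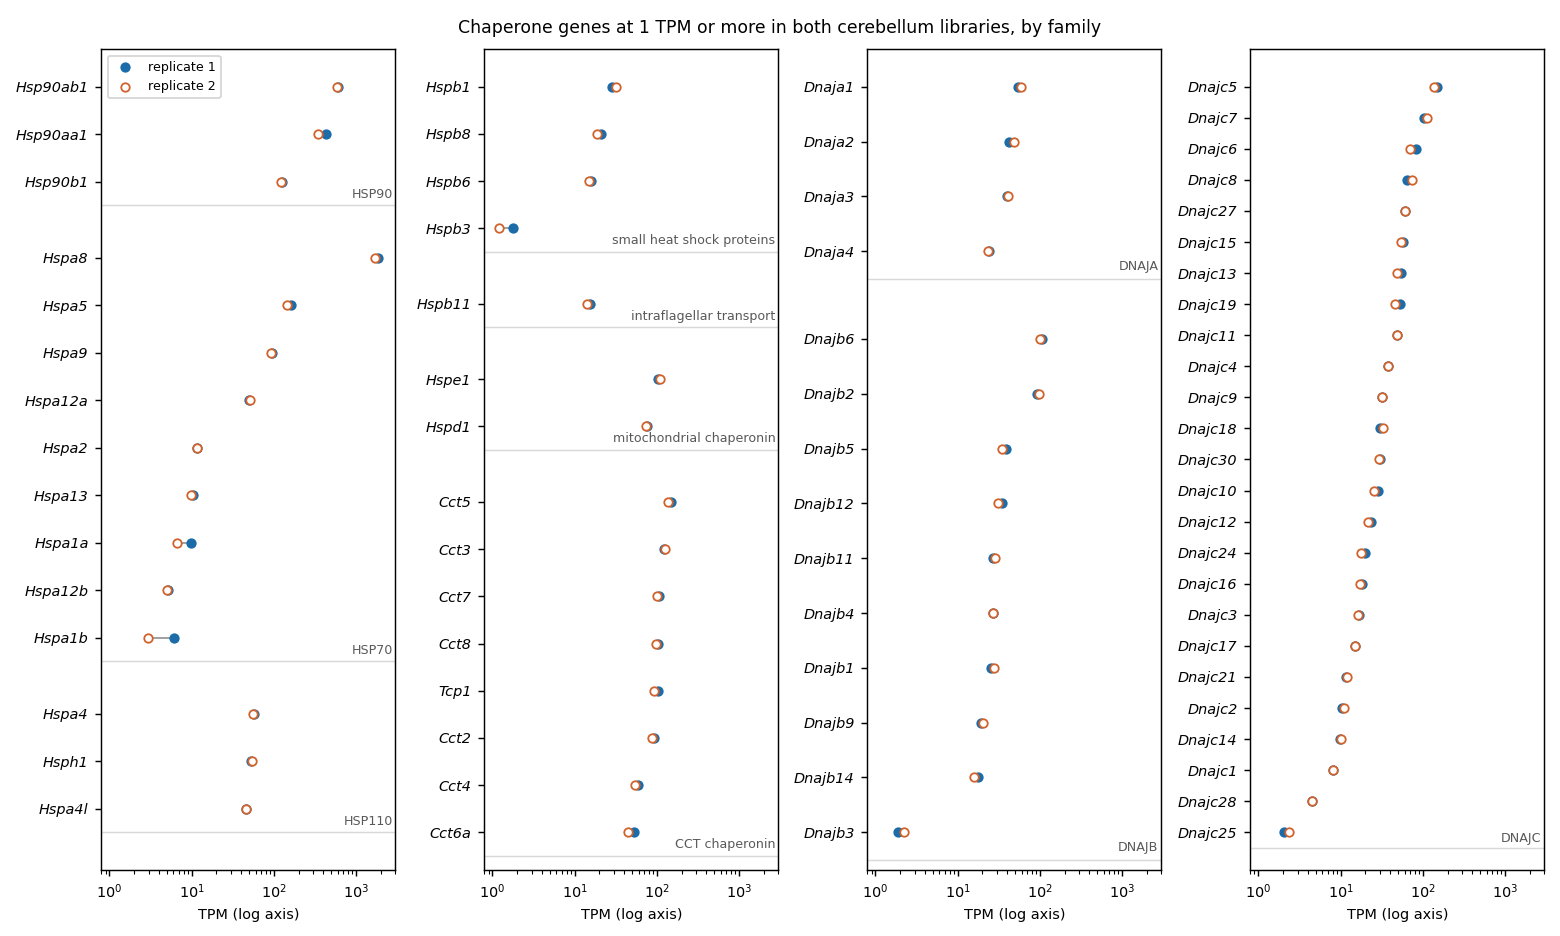
Level of each chaperone gene at 1 TPM or more in both libraries, by family; the horizontal axis is TPM on a log scale, filled points are replicate 1 and open points replicate 2. Hspa8 stands highest at 1821 and 1682 TPM, and the points of the 2 libraries nearly coincide except for Hspa1a, Hspa1b and Hspb3.

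Among the HSP70 genes, the main forms of the cytosol, endoplasmic reticulum and mitochondria stood far above the stress-induced Hspa1a and Hspa1b. Hspa8 encodes Hsc70, the constitutive cytosolic HSP70, which also strips clathrin from endocytosed vesicles. It was at 1821 and 1682 TPM, above 99.9% of protein-coding genes. Hspa5, the HSP70 of the endoplasmic reticulum (BiP), followed at 163 and 143 TPM, and Hspa9, the mitochondrial HSP70 (mortalin), at 94.1 and 91.4 TPM. Each of these 3 compartments therefore had 1 leading gene, and by gene TPM their order was the same in both libraries, with no overlap of values. The place of Hspa5 above Hspa9 did not hold by the coding transcript with the largest share. By that measure Hspa5-202 was at 81.2 and 79.7 TPM and Hspa9-201 at 89.4 and 86.3 TPM. In the mm9 means, described below, Hspa5 was above Hspa9, at 17.5 and 11.4 RPKM. Hspa12a, an atypical and distant relative, was at 50.2 and 51.5 TPM.

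Hspa1a and Hspa1b, the heat-inducible cytosolic HSP70 genes, were at 9.79 and 6.64 TPM and at 6.04 and 2.92 TPM. Hspa8 was thus 115 times their sum in replicate 1 and 176 times their sum in replicate 2. Hspa1l, their neighbour, known mainly from testis, was at 0.58 and 0.31 TPM and was the lowest HSP70 gene. Hspa2, also known from male germ cells, was at 11.7 and 11.6 TPM, the endoplasmic reticulum gene Hspa13 at 10.3 and 9.73 TPM, and Hspa12b at 5.11 and 5.07 TPM. The ranges of Hspa13 and Hspa1a over the 2 libraries overlapped, although Hspa13 was higher in each library.

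The HSP110 genes, relatives of HSP70 that act as its nucleotide exchange factors, lay close together. Hspa4 was at 57.6 and 55.1 TPM, Hsph1 at 52.6 and 54.0 TPM, and Hspa4l at 46.4 and 45.3 TPM. Hspa4 stood above Hsph1, and Hsph1 above Hspa4l, in each library. Other exchange factors, which are no members, ranged from 10.4 TPM (Bag4) to 141 TPM (Bag6) in their means, and all 11 of that list were at 1 TPM or more.

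All 3 HSP90 genes were above 100 TPM. Hsp90ab1, the constitutive cytosolic form, was at 600.4 and 586 TPM, above 99.4% of protein-coding genes. Hsp90aa1, the inducible cytosolic form, was at 424 and 347 TPM. Hsp90b1, the form of the endoplasmic reticulum (GRP94), was at 125 and 122 TPM. Unlike the cytosolic HSP70 genes, the HSP90 pair was of similar level: the ratio of Hsp90ab1 to Hsp90aa1 was 1.42 in replicate 1 and 1.69 in replicate 2.

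The TPM gap of Hsp90aa1 between the libraries was not seen in its counts, which were 54209 and 53492. Most of its level lay on 3 transcripts. Hsp90aa1-202 (3281 nucleotides) held 59.7% and 55.6% of the gene's TPM, Hsp90aa1-201 (2852 nucleotides) 17.6% and 38.6%, and the short Hsp90aa1-208 (711 nucleotides) 18.5% and 2.04%. A short transcript turns few fragments into a large TPM: Hsp90aa1-208 had 2136 and 202 expected counts, 3.94% and 0.378% of the gene's fragments, but 78.4 and 7.08 TPM. The log2 ratio of replicate 1 to replicate 2 was 0.030 from counts and 0.29 from TPM.

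Small heat shock proteins, which hold unfolded clients without using ATP, were the lowest family, with a median of 1.49 TPM over 7 genes. Hspb1 (Hsp25) was at 28.3 and 31.4 TPM, Hspb8 at 21.1 and 18.7 TPM, and Hspb6 at 15.9 and 15.1 TPM. These 3 ranked in the same order in both libraries. The other 4, known mainly from muscle, heart or testis, were near or below 1 TPM: Hspb3 was at 1.78 and 1.20 TPM, Hspb2 at 0.97 and 0.98 TPM, Hspb7 at 0.07 and 0.10 TPM, and Hspb9 had 1 count in replicate 1 and 0 in replicate 2. Cryab, the alpha-B-crystallin that belongs to the same protein family but not to the naming rule, was at 137 and 160.2 TPM, which is 2.01 and 2.37 times the sum of all 7. Hspb11 carries a heat shock symbol but encodes a subunit of intraflagellar transport, and it was at 15.4 and 14.3 TPM.

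The J-domain genes were 45 in number, and their summed level was lower than that of the HSP70 genes, with a ratio of 0.700 in replicate 1 and 0.748 in replicate 2. This rests on Hspa8. The J-domain genes summed to 1521 and 1500 TPM and the HSP70 genes to 2172 and 2004 TPM, of which Hspa8 alone held 1821 and 1682 TPM. Of the 4 Dnaja genes, the cytosolic Dnaja1 was at 54.8 and 59.1 TPM, Dnaja2 at 42.8 and 47.9 TPM, the mitochondrial Dnaja3 at 39.7 and 40.6 TPM, and Dnaja4 at 23.9 and 23.7 TPM. The 4 levels did not overlap. By TMM-scaled counts their log2 ratios of replicate 1 to replicate 2 ran from -0.24 to -0.060, and with log2(TPM + 1) Dnaja4 was at 0.0087.

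In the Dnajb family the leaders were the 2 genes known for holding back aggregation of expanded polyglutamine and other neuronal clients. Dnajb6 was at 106 and 100.98 TPM, and Dnajb2, a J protein enriched in neurons, at 91.2 and 96.9 TPM. Dnajb5 followed at 38.5 and 34.9 TPM and Dnajb12, of the endoplasmic reticulum membrane, at 34.3 and 30.8 TPM. Dnajb1, the main J partner of HSP70 in the stress response, was at 25.8 and 27.8 TPM, so that Dnajb6 exceeded it 4.11 and 3.63 times. The 2 were closer in the means of the authors' mm9 quantification, described below, with Dnajb6 at 4.84 RPKM and Dnajb1 at 3.31 RPKM. Dnajb4 was at 26.9 and 26.8 TPM, Dnajb14 at 17.6 and 15.98 TPM and Dnajb3, known from sperm, at 1.88 and 2.23 TPM. Dnajb8 had no counts in either library, Dnajb7 0 and 3, and Dnajb13, a gene of motile cilia and sperm, 32 in each. A count of 0 allows up to 3 counts, which is 0.0399 and 0.0397 CPM of the nuclear gene counts and covers counting error only.

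Of the 28 Dnajc genes, the highest was Dnajc5, the cysteine string protein of synaptic vesicles, which works with Hsc70 on SNARE proteins, at 150.4 and 138 TPM. Dnajc7, a cytosolic co-chaperone with tetratricopeptide repeats, was at 103 and 112 TPM. Dnajc6, the neuronal auxilin that recruits Hsc70 to clathrin coats, was at 82.5 and 69.1 TPM, and its ubiquitous relative Gak, which lies outside the naming rule, at 56.6 and 53.1 TPM. Dnajc8, a protein of the spliceosome, was at 63.7 and 73.8 TPM. The order of Dnajc5 over Dnajc7 held in both libraries, while Dnajc6 was above Dnajc8 in replicate 1 and below it in replicate 2. Dnajc5g had no counts and its relative Dnajc5b, like it known from testis, 4 and 0.

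The other Dnajc genes spanned a wide range. Dnajc27, which also carries a small GTPase domain, was at 61.0 and 60.2 TPM, Dnajc9, which binds histones, at 32.1 and 32.0 TPM, and Dnajc18 at 30.02 and 32.5 TPM. Dnajc12, a partner of the aromatic amino acid hydroxylases, was at 23.4 and 21.4 TPM and Dnajc16 at 18.4 and 17.3 TPM. The J proteins of ribosome assembly and function were lower, with Dnajc21 at 11.6 and 12.1 TPM and Dnajc2 at 10.3 and 11.0 TPM. Dnajc14 was at 9.83 and 10.2 TPM, Dnajc28 at 4.56 and 4.52 TPM, Dnajc25 at 2.04 and 2.37 TPM, and Dnajc22 had 2 and 6 counts.

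By compartment, the 8 members listed for the endoplasmic reticulum were all at 1 TPM or more, with a median of 23.5 TPM. The list does not hold the J protein Dnajb12 of its membrane, given above. On it, Hspa5 and Hsp90b1 were followed by the J proteins Dnajb11 at 27.1 and 28.4 TPM, Dnajc10, a disulfide reductase, at 28.5 and 25.6 TPM, Dnajb9 at 19.4 and 20.6 TPM, Dnajc3 at 17.0 and 16.4 TPM and Dnajc1 at 8.10 and 8.16 TPM. Dnajb11 and Dnajc10 exchanged places between the libraries.

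RefSeq promoter windows on GRCm38.p6, from 250 bases before to 50 after a start site, were found for 65 of the 80 members, with 84 windows. The ER stress element, searched on both strands as CCAAT, any 9 bases and then CCACG, is the site through which unfolded proteins in the endoplasmic reticulum are known to raise transcription. It contains the shorter CCAAT box, which 37.4% of all windows hold. The full element was found in 39 of 32851 windows (0.119%), among them those of 3 members, Hspa5, Hsp90b1 and Dnajc3. All 3 are on the list of endoplasmic reticulum members. They are printed 5′ to 3′ on the gene's strand, with the matched letters in capitals, to show the matches side by side. Hspa5 lies at chr2:34772020-34772049 on the plus strand, Hsp90b1 at chr10:86705510-86705694 on the minus strand and Dnajc3 at chr14:118937787-118937885 on the plus strand.
Hspa5: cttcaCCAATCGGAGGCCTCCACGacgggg
Hsp90b1: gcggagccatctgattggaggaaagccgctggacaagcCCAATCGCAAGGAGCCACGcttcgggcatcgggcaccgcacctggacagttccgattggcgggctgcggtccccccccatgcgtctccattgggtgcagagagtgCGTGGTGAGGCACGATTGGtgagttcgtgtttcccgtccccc
Dnajc3: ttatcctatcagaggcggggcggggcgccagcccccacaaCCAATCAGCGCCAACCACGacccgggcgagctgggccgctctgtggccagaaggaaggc
Counted from the start site, the match runs from -65 to -47 in Hspa5, where all 19 bases also lie in an annotated exon of Hspa5 that begins upstream of the RefSeq start, and from -105 to -87 in Dnajc3. Hsp90b1 held 2 matches, which lie between -212 and -89, and the second reads on the opposite strand. The 3 genes were at different levels in this tissue, from 153 TPM for Hspa5 to 16.7 TPM for Dnajc3 in the mean of the libraries. A match is a run of letters and no measurement of binding.

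The mitochondrial members, 8 on the list, had a median of 52.2 TPM and none was below 29 TPM in either library. Hspe1 and Hspd1 encode the lid (Hsp10) and the barrel (Hsp60) of the mitochondrial chaperonin. Hspe1 was at 103 and 109.9 TPM and Hspd1 at 76.1 and 74.5 TPM, a ratio of 1.35 in replicate 1 and 1.48 in replicate 2. Hspa9, given above, came between them. In the mm9 quantification described below, the order of the pair was reversed in the means, with Hspd1 at 5.53 RPKM and Hspe1 at 3.84 RPKM. There Hspa9, at 11.4 RPKM, was above both. Dnajc15, a J protein of the inner membrane, was at 57.2 and 54.0 TPM, Dnajc19, of the import motor, at 52.1 and 45.4 TPM, Dnajc11 at 48.1 and 48.9 TPM, and Dnajc30, the lowest, at 29.8 and 29.5 TPM.

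Hspd1 and Hspe1 lie head to head on chromosome 1, where the annotated genes (chr1:55077835-55088243 on the minus strand and chr1:55088132-55091307 on the plus strand) overlap by 112 bases. The RefSeq start sites used here lie 216 bases apart. A heat shock element of 3 units, the site of HSF1, was searched on both strands as GAA, TTC and GAA or as TTC, GAA and TTC, with any 2 bases between neighbouring units. The 2 forms can overlap in longer runs. It was found in 198 of 32851 windows (0.603%) and in those of 4 members: Hspd1, Hspe1, Dnajb6 and Hsph1. Hspd1 and Hspe1 share the same 2 overlapping matches, which end 72 bases before the start of Hspe1 and lie 127 bases from that of Hspd1. In Hsph1 the match lies after the start. The stretches before the RefSeq start, with the element in capitals, are shown because the windows of both chaperonin genes hold the first of them. All matched bases lie within exons of GENCODE transcripts. The 18 bases at Hspe1 lie before the annotated Hspe1 gene and in exons of Hspd1, so for Hspd1 they are upstream only of the start used. The 13 bases at Dnajb6 lie in exons of Dnajb6 or Gm5129 and after the annotated start of the Dnajb6 gene.
Hspe1, chr1:55088053-55088082, plus strand: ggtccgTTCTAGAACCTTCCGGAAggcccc
Dnajb6, chr5:29735844-29735873, plus strand: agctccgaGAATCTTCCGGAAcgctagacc
The windows of Hspa1a and Hspa1b held no match to these letters, which says nothing more than that. A TATA box (TATAAA, both strands) was in the windows of 4 members, Dnajc19, Dnajc24, Hspb3 and Hspb6, and in 13.6% of all windows.

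The CCT chaperonin, which folds actin and tubulin in the cytosol, is a double ring in which each of 8 subunits occurs once per ring. The 8 genes were all above 45 TPM in both libraries. Cct5 was at 147 and 137 TPM, Cct3 at 124 and 125 TPM, Cct7 at 106 and 99.9 TPM, Cct8 at 104 and 98.4 TPM, Tcp1 at 102 and 92.2 TPM, and Cct2 at 93.3 and 86.2 TPM. Lower than the rest were Cct4 at 58.3 and 53.6 TPM and Cct6a at 52.4 and 45.0 TPM. Of the 8, 6 were within 1.5-fold of their median of 99.1 TPM, and Cct4 and Cct6a were not. The highest was 2.92 times the lowest in the means, 2.81 times in replicate 1 and 3.04 times in replicate 2. In the mm9 means, described below, Cct6a was again lowest, at 4.19 RPKM. The low place of Cct4 did not hold there: it was at 8.59 RPKM, above Cct8 at 8.08 RPKM and Cct2 at 7.66 RPKM.

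The testis form Cct6b was at 0.13 and 0.15 TPM, so Cct6a exceeded it 403 and 300.1 times. The ranges of Cct7, Cct8 and Tcp1 overlapped, although their order was the same in each library. By the leading transcript alone, Cct5 remained highest with a mean of 117 TPM and Cct4 became lowest with 36.0 TPM. The leading Cct4-204 held 63.0% and 65.7% of the TPM of Cct4. Of the rest, the largest part, 21.5% and 16.9%, lay on Cct4-203, a transcript of 465 nucleotides classed as nonsense-mediated decay. Prefoldin, which delivers clients to the ring, and the other CCT cofactors were all expressed: 9 of 9 were at 1 TPM or more, from 20.7 TPM (Pfdn4) to 219 TPM (Pfdn5) in the mean.

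**Figure D2:**
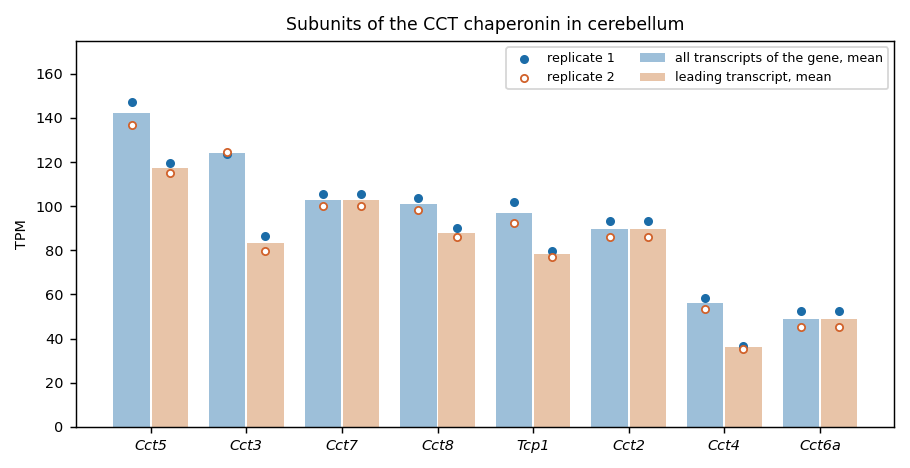
TPM of the 8 CCT subunit genes, from all transcripts of the gene and from the leading transcript; bars are means of the 2 libraries and points the single libraries, on an axis that starts at 0. Cct5 is highest at 147 and 137 TPM, and Cct4 and Cct6a are the lowest.

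Other genes of the chaperone network were expressed as well, at levels that differed by list. Of 19 co-chaperones of HSP70 and HSP90, 19 were at 1 TPM or more and 17 at 10 TPM or more in both libraries, with a median of 48.6 TPM in replicate 1 and 51.8 TPM in replicate 2. The highest was Fkbp8, a membrane-anchored immunophilin, at 348 and 351 TPM, and the adaptor Stip1, which joins HSP70 to HSP90, was at 139 and 133 TPM. The transcription factor gene Hsf1 was at 45.4 and 42.9 TPM, above Hsf2 at 9.68 and 10.2 TPM. None of the genes on these lists with at least 100 counts was 1.5-fold apart between the libraries.

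The 2 libraries gave nearly the same counts for most chaperone genes, with the Hspa1 genes standing apart. Counts were compared after TMM scaling in edgeR, as log2 CPM (counts scaled to library size) with a prior count of 2, over genes with at least 100 counts in both libraries together. Of the 80 members, 69 passed that minimum. None was 2-fold apart, against 0.637% of the 15543 genes, and 2 (2.90%) were 1.5-fold apart, against 2.70%. Regardless of sign, the members' log2 ratios had a median of 0.053 and those of all genes 0.095, a difference that was not tested. The 2 sets were not matched for level, and the members' median level was higher, as given above. With lower minimums the median of all genes grew, to 0.12 at 10 counts and 0.15 with no filter. That of the members was then 0.058 and 0.059.

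The median log2 ratio was -0.022 for the members and -0.0015 for all genes. By sign, 23 members were higher in replicate 1 and 46 (66.7%) were lower in it, against 50.4% of all genes, but this split depends on the scaling. With spike-in totals it was 43 to 26, and with log2(TPM + 1) it was 46 to 23, so no direction is given for the family. All genes moved in the same way, from 7702 higher and 7841 lower to 10231 and 5312 with spike-in totals.

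The 3 largest ratios among the members that passed belonged to neighbours on chromosome 17. Hspa1b (chr17:34956436-34959238) had 833 and 425 counts and was 1.97 times higher in replicate 1. Hspa1l (chr17:34972703-34979285) had 70 and 40 counts, a ratio of 1.73, and Hspa1a (chr17:34969190-34972156) had 1435 and 1029 counts, a ratio of 1.40. Hspa1a and Hspa1l lie head to head, 546 bases apart, and Hspa1b lies 9951 bases from Hspa1a on the same strand as Hspa1a. The 2 past 1.5-fold, Hspa1b and Hspa1l, were both higher in replicate 1. Hspa1b was just under 2-fold and passed it with spike-in scaling, at a log2 ratio of 1.03 against 0.98, and with log2(TPM + 1) Hspa1l fell under 1.5-fold, at 0.27. In the mm9 quantification, whose numbers 1 and 2 name no library, Hspa1b was at 2.52 and 1.75 RPKM, a ratio of 1.44 that is under 1.5-fold. Hspa1a was at 2.63 and 1.80 RPKM there, a ratio of 1.46. Hspa1l, at the low values of 0.089 and 0.054 RPKM, had a ratio of 1.63, which is past 1.5-fold.

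Hspa1a and Hspa1b are near-identical copies, so their separate values are less certain than their sum of 15.8 and 9.56 TPM. Of the stretches of read length in the leading transcript, 48.4% of Hspa1a and 49.7% of Hspa1b were also in a transcript of another gene, almost all in each other. The authors' posterior standard deviation was 1.37% and 1.35% of the count for Hspa1a and 2.36% and 3.26% for Hspa1b. That value covers the assignment of reads within this quantification only. Replicate 1 also had more choroid plexus RNA and less red blood cell RNA, with the sums given above, and meningeal fibroblast markers were at 87.6 and 59.7 TPM and oligodendrocyte markers at 6172 and 7292 TPM. The libraries were also opposite in Xist and the Y-linked genes. Immediate-early genes, which respond to handling of tissue too, summed to 108 and 103 TPM. Within them Jun was at 39.1 and 32.2 TPM and Egr1 at 18.1 and 16.03 TPM, and Fos was at 10.8 and 14.2 TPM and Nr4a1 at 7.38 and 9.17 TPM. The part of these differences in the Hspa1 ratios was not tested.

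**Figure D3:**
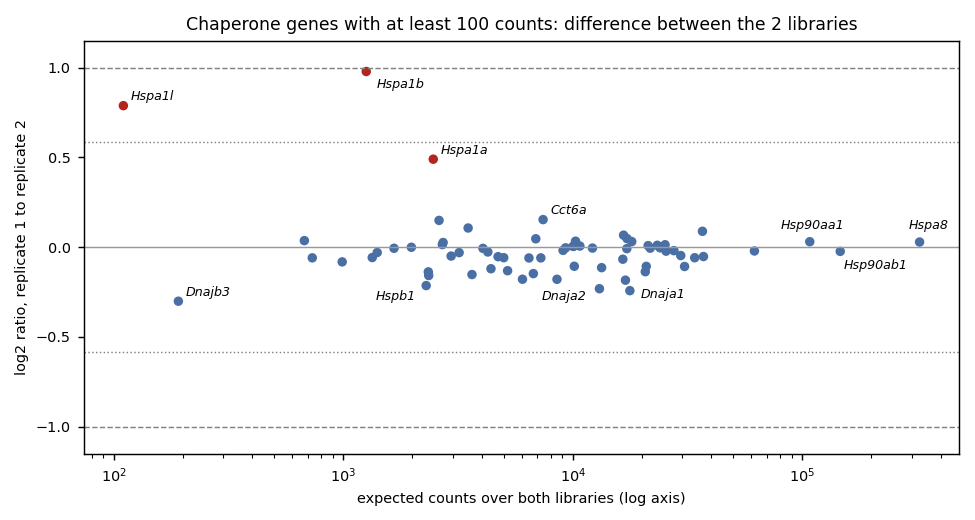
Log2 ratio of replicate 1 to replicate 2 of the 69 chaperone genes with at least 100 counts (vertical axis), by expected counts over both libraries (log axis); dotted and dashed lines mark 1.5-fold and 2-fold. Hspa1b, Hspa1l and Hspa1a, in red, stand above the rest, and no gene is past 2-fold.

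The other 9 on the list of heat-inducible members, which also holds Hspa8 as a gene known to rise further with heat, had no ratio past 1.5-fold. Hspa8 was at a log2 ratio of 0.029 and Hsp90aa1 at 0.030. Dnaja1 was at -0.24, Dnajb1 at -0.18 and Hspb1 at -0.21. Among members with at least 100 counts, the largest ratio toward replicate 2 was that of Dnajb3, at -0.30, with 85 and 106 counts. The 8 genes of the CCT ring ran from -0.0056 to 0.15, the value of Cct6a.

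Transcript composition was described for members with at least 2 annotated transcripts and 5 TPM in both libraries. In 13 of 49 such members (26.5%) a second transcript held 20% or more of the TPM in each library, against 39.0% of 8102 genes. The 13 were Cct3, Dnajb12, Dnajc1, Dnajc4, Dnajc5, Dnajc6, Dnajc7, Dnajc17, Dnajc19, Dnajc24, Hspa5, Hspa8 and Hspb11.

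Hspa8 and Hspa5 each had a large second transcript that is not classed as protein-coding. Hspa8-201 (2394 nucleotides, protein-coding) held 69.3% and 70.4% of the TPM of Hspa8, and Hspa8-209, a processed transcript of 727 nucleotides, 25.6% and 27.2%. In Hspa5 the coding Hspa5-202 held 49.8% and 55.7%, and Hspa5-204, of 477 nucleotides and classed as nonsense-mediated decay, 47.3% and 41.7%. These short forms account for far fewer fragments: Hspa8-209 took 8.02% and 8.38% of the gene's expected counts, and Hspa5-204 took 9.60% and 7.66%.

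By the coding transcript alone, the order of the 2 endoplasmic reticulum leaders turned. Hspa5-202 was at 81.2 and 79.7 TPM and Hsp90b1-201 at 111 and 110.2 TPM, while over all transcripts Hspa5 was above Hsp90b1. Hspa8-201 alone, at 1261 and 1184 TPM, still exceeded every other member. Short transcripts that overlap a long one share its reads, so the split between them is an estimate.

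Dnajc13, a large J protein of endosomes (RME-8), showed a wide gap between the shares of TPM and of counts. The full-length Dnajc13-201, with 8012 nucleotides, held 83.3% and 84.6% of the expected counts but 18.8% and 20.3% of the TPM, while Dnajc13-204, with 398 nucleotides, held 50.3% and 45.8% of the TPM from 5.75% and 4.84% of the counts. The gene's level of 53.7 and 48.1 TPM thus included 10.1 and 9.74 TPM of the full-length form. In Dnajc7 the coding Dnajc7-201 held 35.4% and 32.1% of TPM and the processed transcript Dnajc7-203 27.7% and 33.1%, so the leading transcript differed between libraries. The same was true of Dnajc24, where Dnajc24-201 held 37.7% and 46.0% and the processed Dnajc24-202 44.2% and 39.1%.

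**Figure D4:**
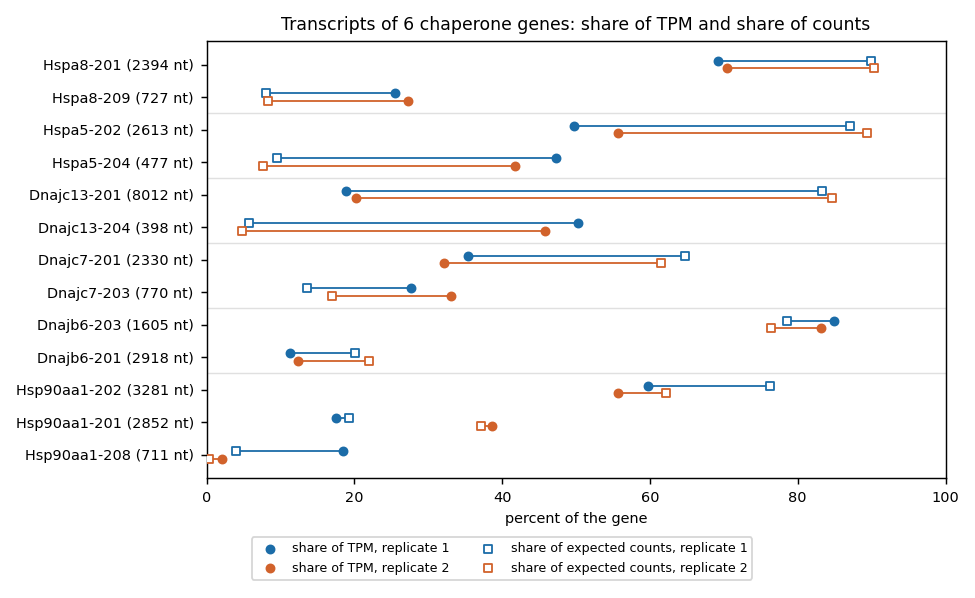
Share of each transcript in its gene for 6 chaperone genes, by TPM (filled circles) and by expected counts (open squares), in percent; blue is replicate 1 and orange replicate 2. Dnajc13-204, with 398 nucleotides, holds 50.3% and 45.8% of the gene's TPM but 5.75% and 4.84% of its counts.

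Several co-chaperones were mixtures of coding forms. Dnajb6-203, the short form of 8 exons, held 84.9% and 83.2% of the TPM, and Dnajb6-201, the longer form of 10 exons, 11.3% and 12.4%. In Dnajb2 the leading Dnajb2-210 held 52.8% and 50.9% and Dnajb2-207 17.1% and 22.1%. Dnajc6-203 and Dnajc6-204, auxilin transcripts of 19 and 20 exons, held 49.3% and 53.4% and 25.0% and 25.7%. Dnajc5-201, with 6578 nucleotides, held 44.6% and 48.0%, ahead of the short Dnajc5-202 with 27.3% and 23.6%. Dnajb12-203 led with 51.5% and 47.7%, and Hspb11-201 with 46.3% and 41.7%.

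For 3 members the leading transcript was not classed as protein-coding. In the authors' quantification Cct6a and Dnajc15 each had only 1 transcript. M21 classes that of Cct6a as a processed transcript and that of Dnajc15 as nonsense-mediated decay, although both genes encode known proteins. The gene Dnajc15 itself is classed as protein-coding in M21. The leading transcript of Hspa4l, with 75.1% and 76.7% of its TPM and 9479 nucleotides, has no entry in M21, so its class is not given.

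The authors' mm9 quantification, in RPKM over Ensembl 65 genes, is a second quantification and not an independent experiment, and its replicate numbers name no library. Xist was at 14.4 RPKM under number 1 and 0.053 RPKM under number 2. All 80 members were found by identifier. Hspa8, Hsp90ab1, Hsp90aa1, Hspa5 and Dnajc5 were the 5 highest in both, in that order. The rank correlation over the 80 members was 0.942, a description in which both axes share the tissue and gene length. The median of TPM per RPKM was 8.48 over 69 members at 1 TPM or more and 8.53 over 13074 protein-coding genes, and 55 of the 69 were within 1.5-fold of the members' median.

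Of the 14 outside that range, 11 were lower in mm9 and 3 were higher. The 5 largest shifts of rank were those of Dnajc13, from 27 to 60, Hspe1, from 10 to 35, Dnajc19, from 29 to 52, Dnajc30, from 41 to 22, and Dnajb6, from 11 to 29. Dnajc13 was at 1.09 RPKM in mm9, a TPM per RPKM of 46.5, the highest of all. Hspb11, Dnajb2, Hspb1, Dnajc15, Dnajc17, Dnajc4 and Hspd1 were the others that fell behind in mm9, and Hspa1a and Hspa1b, like Dnajc30, moved ahead, with 3.71 and 2.10 TPM per RPKM. Hspa1a and Hspa1b were at 2.22 and 2.13 RPKM in the mm9 means, while on mm10 Hspa1a was 1.62 times Hspa1b in replicate 1 and 2.27 times in replicate 2.

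Shared sequence and the length of the leading transcript were measured beside these shifts. Of the 11 that fell, 5 (Hspe1, Dnajc19, Dnajb6, Hspb1 and Hspd1) shared 10% or more of their read-length stretches with another gene, from 16.6% to 56.3%. In 4 of them, all but Hspe1, the gene sharing most was a processed pseudogene. Of the 55 near the median, 3 shared 10% or more, namely Hspa8 (62.6%), Hsp90aa1 (47.3%) and Dnaja1 (24.9%). For these 3 too, the gene sharing most was a processed pseudogene, classed as transcribed in the case of Hsp90aa1. Among the 3 that moved ahead, Hspa1a shared 48.4% and Hspa1b 49.7%, and Dnajc30 shared none. The other 6 of the 11 that fell shared less in the transcript searched. Their leading transcripts were of 398 (Dnajc13), 608 (Hspb11), 648 (Dnajc15), 1008 (Dnajc17), 1074 (Dnajc4) and 3066 nucleotides (Dnajb2). Only the leading transcript with an entry in M21 was searched, for Dnajc13 the short Dnajc13-204 and not the full-length Dnajc13-201. The part of either in the shifts was not tested.

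**Figure D5:**
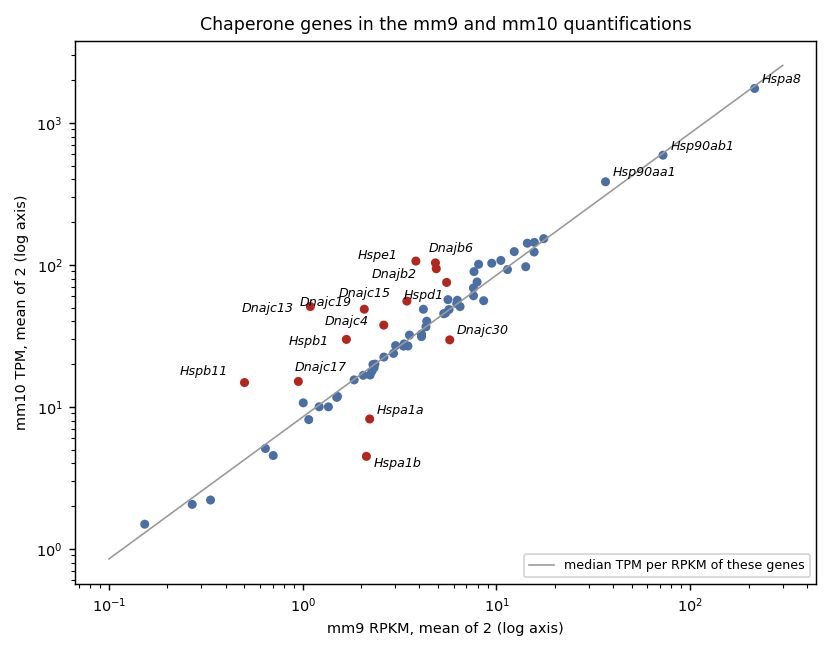
Mean TPM on mm10 against mean RPKM on mm9 for 69 chaperone genes at 1 TPM or more, both axes log; the line is the median of 8.48 TPM per RPKM. The 14 genes in red lie more than 1.5-fold from it, with Dnajc13 farthest above and Hspa1b farthest below.

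Reads across splice junctions, counted by the authors on mm9, covered 74 members, with 327607 reads under number 1 and 317686 under number 2, and 98.7% of them fell on annotated junctions. The top junction of Hspa8 had 41722 reads. The annotated junctions of a gene, rarely used alternative introns included, differed in reads. Among genes with shared sequence they ranged from 5 to 1421 reads in Hspd1, from 2 to 123 in Dnajb6 and from 21 to 41722 in Hspa8. With none shared in the transcript searched, they ranged from 17 to 18244 in Hsp90ab1, from 2 to 432 in Dnajc13 and from 106 to 2731 in Cct5. For Dnajc13 that transcript was the short Dnajc13-204, so the rest of the full-length form was not searched. The part of shared sequence in these ranges was not tested.

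There were 25 unannotated junctions with canonical splice sites and at least 20 reads in members, in 17 genes. The one with most reads was in Dnajc13 (chr9:104054754-104055597, mm9), with 294 and 271 reads. From the same end, the annotated intron to 104059143 had 193 and 223 reads. Of these reads, 57.6% (95% Wilson interval 54.5% to 60.7%) used the unannotated one, with 60.4% under number 1 and 54.9% under number 2. At the other end of the annotated intron the majority turned. There 71.0% (95% Wilson interval 67.2% to 74.5%) of reads used the annotated intron over another unannotated one, with 66.3% under number 1 and 75.6% under number 2. Each interval pools both numbers and covers counting error only, as do the others for junctions. In Dnajc4, which encodes a J protein of little known function, an unannotated intron (chr19:7064078-7064170, mm9) shared 1 end with an annotated one and differed from it by 3 bases at the other. It took 182 and 141 reads against 50 and 34, a share of 79.4% (95% Wilson interval 75.2% to 83%), with 78.4% and 80.6% under the separate numbers. Dnajb2 held an unannotated intron at chr1:75233165-75233426 with 274 and 264 reads, 31.7% of the reads of its top junction. These junctions were chosen after their reads were seen.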

How the data were processed

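RNA-seq of 2 cerebellum libraries was analysed from the submitters' processed files. Per the file headers, the authors deposited expected counts, TPM and FPKM per gene and per transcript on mm10 with GENCODE M4, with each transcript's percent of its gene's TPM, in columns named as RSEM names them. The sources used here do not give the aligner or versions. On mm9 the authors deposited RPKM per Ensembl 65 gene and counts of junction reads for replicates 1 and 2, numbers that name no library. Values of the 2 assemblies were joined by gene identifier only. Symbols, classes and coordinates came from GENCODE M21.

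Members and lists were chosen with earlier results of these data known. Named genes are, per family list, the 4 highest and the lowest by mean TPM, members 1.5-fold apart between libraries, those whose leading transcript is not protein-coding or under 60% in both libraries, and the 5 with the largest shift of mm9 rank. Others are named with their values as members or to complete a list. Counts were rounded and compared with edgeR 4.0.16 in R 4.3.3 (TMM, prior count 2, at least 100 counts), without p-values, and the calculation was tested on simulated data. Other scalings used DESeq2 1.42.0 size factors, spike-in totals and log2(TPM + 1). Library sizes count all mouse genes, mitochondrial ones included, and no spike-in, phiX or tRNA entries, which stay in the TPM denominator. Shares of nuclear genes also leave out the mitochondrial genome. Promoters are from RefSeq (GRCm38.p6).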

Additional observations from a re-analysis of the deposited data

How the results depend on the processing

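The count of members at 1 TPM or more stayed between 61 and 71 under every alternative tried, including posterior mean TPM, FPKM, mm9 RPKM, thresholds of 0.5 and 2 TPM and either library alone. Values in another unit are on another scale: the members' median was 19.4 in FPKM, 3.16 in mm9 RPKM and 40.9 in TPM rescaled to nuclear genes. Their share was 0.588% of the TPM of all entries and 0.905% of nuclear counts, against 0.807% in the main measure. The number 2-fold apart, 0 of 69 in the main measure, was 1 with spike-in totals (Hspa1b), against 113 of 15543 genes. With no filter on low counts it was 2 of 78 (Dnajc5b with 4 and 0 counts and Dnajb7 with 0 and 3), against 1632 of 23937 genes. Under the other alternatives it was 0. The median log2 ratio of the members changed sign to 0.034 with spike-in totals and to 0.032 with log2(TPM + 1), and the cause was not tested. The CCT ratio of highest to lowest was 3.44 in mm9 RPKM and 3.26 for leading transcripts. The number of members with a second transcript was 25 (51.0%) at 10%, against 66.8% of all genes, and 5 (10.2%) at 30%, against 15.1%. With either library left out, the count at 1 TPM was 69 each time, the median 29.1 to 30.2 TPM, the share 0.801% to 0.813% and the CCT ratio 2.81 to 3.04. The second-transcript count was then 16 (32.7%) each time, against 44.3% of all genes without replicate 1 and 44.0% without replicate 2. No paired analysis was possible because there is 1 group.

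With 2 libraries that differ in Xist and Y-linked RNA, an SD describes these libraries only, and spread between like animals cannot be told apart from that difference. Depth limits the members with few counts: Hspa1l, with 70 and 40 counts, Hspb3, with 55 and 39, and Dnajb3, with 85 and 106.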

Other observations

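Hspa8 transcripts have close copies elsewhere: 62.6% of the read-length stretches of Hspa8-201 were in transcripts of 7 other genes, led by the processed pseudogene Gm15459, listed at 17.9 and 19.8 TPM. In Hsp90aa1 the shared part was 47.3%, led by Gm12346 at 2.40 and 2.60 TPM, and in Hspb1 it was 56.3%, all with Hsp25-ps1 at 0.93 and 0.87 TPM. Whether reads of the coding gene were placed on these copies was not tested.

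Hspd1 had 2 annotated introns that share 1 end and lie 210 bases apart at the other, with 224 and 146 reads for the one and 142 and 122 for the other, so 58.4% (95% Wilson interval 54.5% to 62.1%) used the shorter intron, 61.2% and 54.5% under the separate numbers. In Dnajc13 the unannotated junction described above had a counterpart that shares the far end of the annotated intron, chr9:104055707-104059143 on mm9, with 98 and 72 reads. Hspb2 had its most used junction unannotated as well, with 11 and 18 reads.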
